A study of Mus musculus with 24 samples.

Results

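The gene set described here consists of the Wnt ligands, their receptors and the secreted proteins that modulate them, measured in hindlimb buds of Nipbl+/- and wild type mouse embryos. Members were chosen by name, with earlier results of these data known. Each was read from the probe sets that carry its symbol alone, taking the brightest over the 24 arrays. All 58 listed genes were measured, out of 19937 genes in all, and they comprise 19 ligands, 15 Frizzleds and co-receptors, 12 antagonists, 7 R-spondins and Lgr receptors, and 5 extracellular modifiers. Only Wnt4 had more than 1 such probe set.

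Wnt proteins are lipid-modified signals that bind Frizzled receptors on the cell surface. Together with Lrp5 or Lrp6 they stabilise beta-catenin, and with Ror or Ryk receptors they guide cell movement and polarity. Secreted antagonists such as the Sfrp and Dkk proteins limit the signal, while R-spondins, acting through Lgr receptors, keep Frizzleds at the surface and strengthen it. In the limb bud, Wnt signals from the ectoderm sustain the apical ectodermal ridge and dorsal pattern, and Wnt5a from the mesenchyme directs outgrowth.

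Both hindlimb buds of each embryo were pooled and hybridised to 1 Affymetrix Mouse Gene 1.0 ST array, whose probes sample the length of each transcript. The design held 12 wild type (Nipbl+/+) and 12 Nipbl+/- embryos, stage-matched littermates at E10.5. The mutants were of the RRS strain and carried 1 intact Nipbl allele in every tissue, so the loss was not limited to the limb. Nipbl loads the cohesin complex onto DNA. Values are log2 intensities, and every difference below is Nipbl+/- minus wild type on that scale. The intensities of different probe sets are not on 1 scale, so levels of different genes were not read as relative abundance. Mean levels were set against a floor from olfactory receptor genes, used to choose examples and averaged over marker lists.

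For Nipbl, wild type embryos had log2 intensities of 10.32 to 10.72 and Nipbl+/- embryos of 9.54 to 9.97, with no overlap (adjusted p = 2.42e-09, limma). All 8 markers of limb mesenchyme exceeded the 95th percentile of olfactory receptor genes, which served as a floor for unexpressed genes, and their mean level per embryo was 10.95 to 11.07 in wild type and 10.94 to 11.10 in mutants. Array medians lay between 7.24 and 7.39. The interquartile ranges were narrowest in 1 wild type and 2 mutant arrays. Fewer of the mutants were female by Xist, whose median was 11.96 in wild type and 5.6 in mutants, with 9 of 12 mutants below the wild type mean. Sex was thus unevenly spread between the genotypes. In whole buds, fewer cells of a type and less RNA per cell cannot be told apart.

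Of the 58 Wnt genes, 5 were lower in Nipbl+/- hindlimb buds and 0 were higher (adjusted p under 0.05, limma). They were the extracellular modifiers Cthrc1 and Sulf1, the R-spondin Rspo3, the antagonist Dkk2 and the receptor Fzd8. Over all genes, 0.527% were called lower and 0.286% higher. At an unadjusted p under 0.05, 14 members were lower and 2 higher, against 5.14% lower and 4.13% higher over all genes. The log2 difference was under 0 for 40 of the 58 members (69.0%), against 53.5% of all genes, and its median was -0.041 in the set and -0.0049 over all genes. No member separated the genotypes completely, while over all genes 8 did so lower and 3 higher. The set was chosen with earlier results of these data known, so its shares were not tested against those of all genes.

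**Figure D1:**
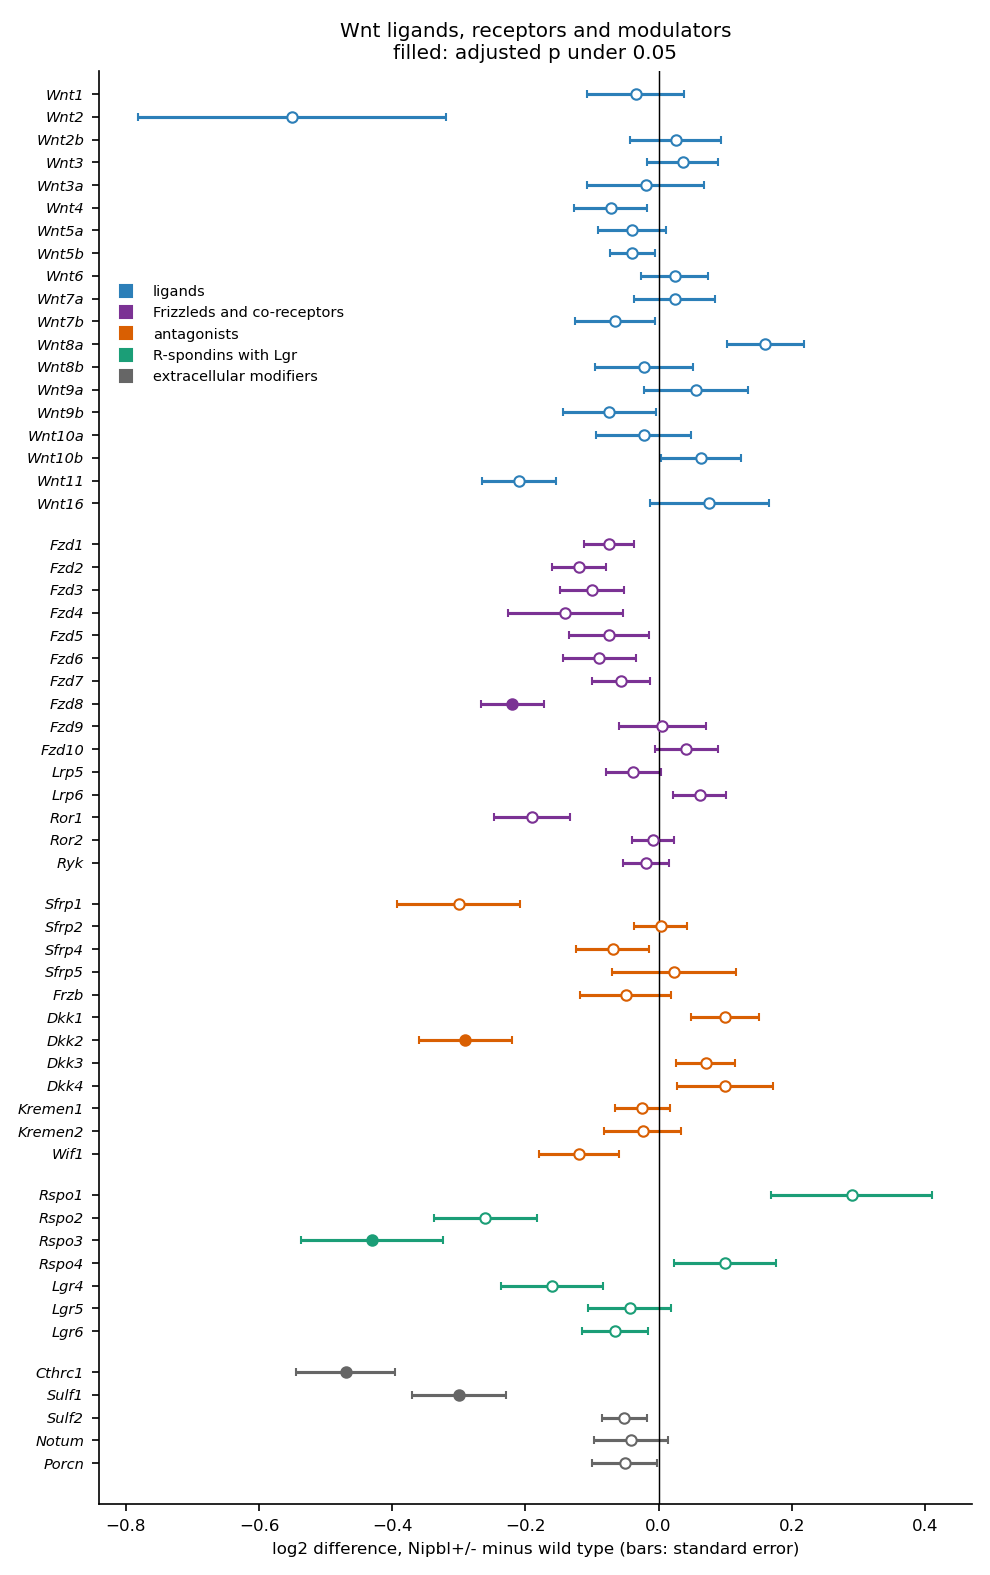
Log2 difference (Nipbl+/- minus wild type, horizontal axis) of each of the 58 Wnt genes, coloured by subfamily, with bars for limma's standard error and filled symbols for an adjusted p under 0.05. The 5 filled points lie between -0.47 and -0.22, while Wnt2, at -0.55, has the widest bar and is open.

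Each subfamily had more members under than above 0, and so did all genes (53.5% under 0). The share was 57.9% in ligands and 58.3% in antagonists, near that of all genes. It was 71.4% in R-spondins and Lgr receptors, 80.0% in Frizzleds and co-receptors and 100.0% in extracellular modifiers. Among the Frizzleds and co-receptors 12 of 15 were under 0 (median -0.074) and 1 was called lower. All 5 extracellular modifiers were under 0 (median -0.051), with 2 called. The R-spondins and Lgr receptors had 5 of 7 under 0 (median -0.066) and 1 called, the antagonists 7 of 12 (median -0.024) and 1 called, and the ligands 11 of 19 (median -0.021) and 0 called. Differences between subfamilies were not tested.

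No Wnt ligand passed the test over all genes. Wnt11, which in many tissues signals without beta-catenin, had log2 intensities of 7.40, 7.65 and 7.86 (lowest, median, highest) in wild type and 7.21, 7.42 and 7.78 in mutant embryos. The groups overlapped, although 5 mutants lay below every wild type embryo and 11 of 12 below the wild type mean. The difference was -0.21 (standard error 0.0555, ratio 0.866), with an adjusted p of 0.081 from limma. It passed under 4 of 12 alternative settings, with adjusted p from 0.00585 to 0.173.

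Wnt2, a ligand best known from lung and placenta, showed the largest difference of any member, at -0.55 (standard error 0.231, ratio 0.684), and its adjusted p was 0.416 (limma). Its log2 intensity was 7.20, 7.87 and 8.63 in wild type and 6.59, 7.20 and 8.86 in mutant embryos. Both the lowest and the highest of all 24 values were thus mutant. Its SD was 0.532 in wild type and 0.709 in mutants, and the wild type SD stood at percentile 99.8 of all genes. The median SD of the members in wild type was 0.136, against 0.127 over all genes.

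Wnt8a, a ligand of early embryonic axis formation, lay on the other side of 0. Its log2 intensity was 6.59, 6.90 and 7.15 in wild type and 6.84, 7.04 and 7.26 in Nipbl+/- embryos. Of 12 mutants, 11 were above the wild type mean, but the ranges overlapped and the difference of 0.16 (standard error 0.058) had an adjusted p of 0.262 (limma).

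The other 16 ligands lay between -0.07 and 0.08. Wnt5a, the signal of distal limb mesenchyme, had a difference of -0.04 (standard error 0.0512, adjusted p = 0.915, limma). Wnt5b differed by -0.04, and Wnt3 and Wnt6, both made in limb ectoderm, by 0.04 and 0.02. Wnt7a, the ligand of the dorsal ectoderm, also differed by 0.02 (standard error 0.061). Wnt4 was read by both of its probe sets at -0.07 and -0.08. Wnt1 and Wnt8b were among the 4 members whose mean was at or under the olfactory receptor floor of 6.31, the others being Sfrp4 and Sfrp5.

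Several ligand genes lie side by side in the genome, and neighbouring pairs gave small values of either sign. By RefSeq (GRCm38.p6) no protein-coding gene separates Wnt6 from Wnt10a on chromosome 1 (0.02 and -0.02), Wnt3a from Wnt9a (-0.02 and 0.06) or Wnt9b from Wnt3 (-0.07 and 0.04) on chromosome 11, or Wnt10b from Wnt1 on chromosome 15 (0.06 and -0.03).

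Fzd8, a receptor for canonical Wnt signals, was the only Frizzled past the test. Its log2 intensity was 8.10, 8.44 and 8.56 in wild type and 8.02, 8.22 and 8.28 in Nipbl+/- embryos. All 12 mutants lay below the wild type mean, and 10 of 12 wild type embryos lay above the highest mutant. The mutant values were also closer together, with an SD of 0.0756 against 0.143. The difference was -0.22 (standard error 0.0473, ratio 0.858, adjusted p = 0.0151, limma).

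Ror1, Fzd2 and Fzd3 had an unadjusted p under 0.05. Ror1, a receptor tyrosine kinase that binds Wnt5a, was 9.96, 10.23 and 10.41 in wild type and 9.71, 10.00 and 10.21 in mutants. With 7 wild type embryos above every mutant and 11 of 12 mutants below the wild type mean, the difference was -0.19 (standard error 0.0571, ratio 0.877, adjusted p = 0.147, limma). Ror2, its close relative, differed by -0.01 (standard error 0.0315).

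Fzd2, a receptor for Wnt5a, was 10.65, 10.83 and 10.94 in wild type and 10.54, 10.68 and 10.89 in mutants (-0.12, standard error 0.0406, ratio 0.920, adjusted p = 0.227, limma). Fzd3, a receptor in planar polarity, was 9.74, 9.99 and 10.23 in wild type and 9.73, 9.87 and 10.01 in mutants (-0.10, standard error 0.0474, ratio 0.932, adjusted p = 0.506, limma). In both genes 10 of 12 mutants were below the wild type mean and the ranges overlapped widely.

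The other 11 receptors and co-receptors lay between -0.14 (Fzd4) and 0.06 (Lrp6). Lrp6, a co-receptor of the beta-catenin branch, exceeded the wild type mean in 9 of 12 mutants (0.06, standard error 0.0396, adjusted p = 0.708, limma). Lrp5 differed by -0.04. Ryk, a Wnt receptor with an inactive kinase domain, differed by -0.02. Fzd10 (0.04) and Fzd9 (0.01) were the only Frizzleds above 0.

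Among the antagonists, Dkk2, which binds Lrp5 and Lrp6, was lower in Nipbl+/- buds. Its log2 intensity was 7.19, 7.53 and 7.85 in wild type and 6.95, 7.28 and 7.54 in mutants. All 12 mutants lay below the wild type mean, 5 of them below every wild type embryo. The difference was -0.29 (standard error 0.0702, ratio 0.817, adjusted p = 0.042, limma). The other Dkk genes were all above 0, with Dkk1 at 0.10 (standard error 0.0505, adjusted p = 0.573, limma), Dkk3 at 0.07 and Dkk4 at 0.10. The difference between Dkk2 and these genes was not tested.

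The RefSeq promoters used here cover 36 of the 58 members, Dkk2 among them. The 224 bases before its annotated start (GRCm38.p6, chr3:132085042-132085265, plus strand, 54.5% G or C) are printed to show the promoter-proximal sequence of the called antagonist, with a GC box (GGGCGG) and a TATA box (TATAAA) in capitals.

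Dkk2 promoter: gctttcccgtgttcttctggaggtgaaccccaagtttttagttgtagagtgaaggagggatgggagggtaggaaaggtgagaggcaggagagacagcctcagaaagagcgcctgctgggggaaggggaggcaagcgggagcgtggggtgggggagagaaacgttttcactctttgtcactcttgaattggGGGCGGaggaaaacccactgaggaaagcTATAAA

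The promoter windows span 300 bases, from 250 before to 50 after each transcript start, and motifs were sought on both strands. The TATA box letters lie at 132085260 to 132085265, directly before the annotated gene start, while the transcript start used for the Dkk2 window is 132085292. They occur in 13.6% of all 32851 windows and in 7 of the 40 windows of members. The GC box occurs in 35.7% of all windows and in 30 of the 40. Of the TCF/LEF heptamers, AACAAAG occurs in 5.85% of all windows, ATCAAAG in 3.73%, TACAAAG in 3.63% and TTCAAAG in 5.14%. None of these letters was in the Dkk2 window, while at least 1 heptamer was in 5 of the 40 member windows and in 16.9% of all windows.

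Sfrp1, a secreted protein that sequesters Wnts, was 10.46, 10.87 and 11.24 in wild type and 10.01, 10.59 and 10.93 in mutants. In 10 of 12 mutants it lay below the wild type mean, and the ranges overlapped. The difference of -0.30 (standard error 0.0923, ratio 0.813) was close in size to that of Dkk2, with an adjusted p of 0.164 (limma).

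Wif1, which also binds Wnts directly, was 7.81, 7.99 and 8.19 in wild type and 7.54, 7.88 and 8.12 in mutants. The difference was -0.12 (standard error 0.0603, ratio 0.917, adjusted p = 0.531, limma), and 8 of 12 mutants were below the wild type mean. With embryo sex as a covariate it was -0.19 (adjusted p = 0.228, limma). The other 9 antagonists, apart from Dkk2, Sfrp1 and Wif1, lay between -0.07 (Sfrp4) and 0.10. Sfrp2, abundant in limb mesenchyme, differed by 0.00 (standard error 0.04), Frzb by -0.05 and the Dkk co-receptor Kremen1 by -0.02.

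The R-spondins did not all lie on the same side of 0. Rspo3 was lower in Nipbl+/- buds, with log2 intensities of 8.30, 8.67 and 9.29 in wild type and 7.68, 8.22 and 8.76 in mutants. In 8 mutants it was below every wild type embryo, and 11 of 12 were below the wild type mean. The difference was -0.43 (standard error 0.107, ratio 0.740, adjusted p = 0.0496, limma), the weakest of the 5 calls.

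Rspo2, required for limb outgrowth and the apical ridge, was 8.53, 8.74 and 9.05 in wild type and 8.09, 8.53 and 8.82 in mutants. In 6 mutants it lay below every wild type embryo and in 11 of 12 below the wild type mean, a difference of -0.26 (standard error 0.0772, ratio 0.836, adjusted p = 0.143, limma). Under 12 alternatives its adjusted p ran from 0.00825 to 0.343, passing in 2.

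Rspo1 had the opposite sign. Its log2 intensity was 7.51, 8.34 and 8.62 in wild type and 8.06, 8.51 and 8.96 in mutants, so that 11 of 12 mutants were above the wild type mean and 4 above every wild type embryo. The difference was 0.29 (standard error 0.121, ratio 1.22, adjusted p = 0.418, limma). Its wild type SD of 0.371 stood at percentile 99.5 of all genes, with 3 wild type embryos below every mutant. Rspo4 differed by 0.10 (standard error 0.0764). Whether Rspo1 and Rspo3 differ in response was not tested.

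**Figure D2:**
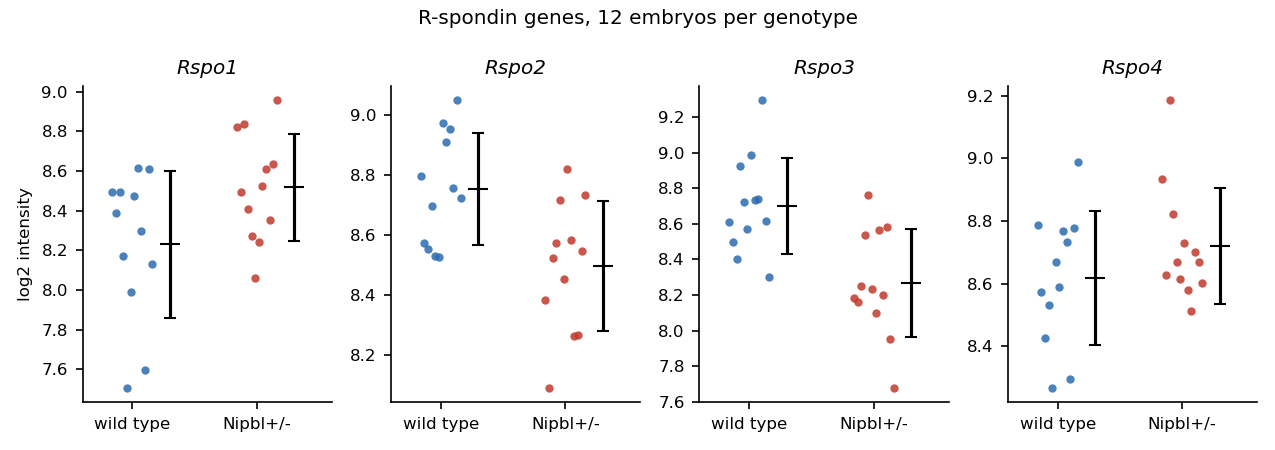
Log2 intensity of the 4 R-spondin genes per embryo, 12 of each genotype (wild type blue, Nipbl+/- red). Black marks give the mean and SD, and each panel has a vertical axis of its own. Rspo2 and Rspo3 are shifted down in mutants (medians 8.74 to 8.53 and 8.67 to 8.22), while Rspo1 sits higher (8.34 to 8.51).

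Lgr4, an R-spondin receptor, was 9.44, 9.62 and 9.91 in wild type and 8.84, 9.54 and 9.74 in mutants. The difference was -0.16 (standard error 0.0765, ratio 0.897, adjusted p = 0.538, limma) and 10 of 12 mutants were below the wild type mean. The lowest value was that of Nipbl+/- 2, and without the 3 arrays of narrowest spread, of which it is 1, the difference was -0.09 (adjusted p = 0.535, limma). Lgr5 and Lgr6 differed by -0.04 and -0.07.

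Cthrc1, a secreted protein that binds Wnt and Frizzled proteins and favours planar polarity signalling, had the smallest adjusted p in the set. Its log2 intensity was 7.80, 8.05 and 8.61 in wild type and 7.54, 7.65 and 7.84 in Nipbl+/- embryos. In 11 mutants it was below every wild type embryo, and 1 mutant alone reached into the wild type range. The difference was -0.47 (standard error 0.074, ratio 0.724, adjusted p = 8.42e-04, limma). The SD was 0.255 in wild type and 0.0971 in mutants, a difference in spread that was not tested. Fzd6, the next protein-coding gene on chromosome 15, differed by -0.09 (standard error 0.0547, adjusted p = 0.685, limma).

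Sulf1, an extracellular sulfatase that trims heparan sulfate and so releases Wnt for its receptors, was 7.99, 8.36 and 8.59 in wild type and 7.78, 8.05 and 8.36 in mutants. All 12 mutants were below the wild type mean and 6 wild type embryos were above every mutant. The difference was -0.30 (standard error 0.0705, ratio 0.814, adjusted p = 0.0375, limma). Its paralog Sulf2 differed by -0.05 (standard error 0.0333), as did Porcn, which acylates Wnts in the producing cell. Notum, which removes that lipid outside the cell, differed by -0.04.

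**Figure D3:**
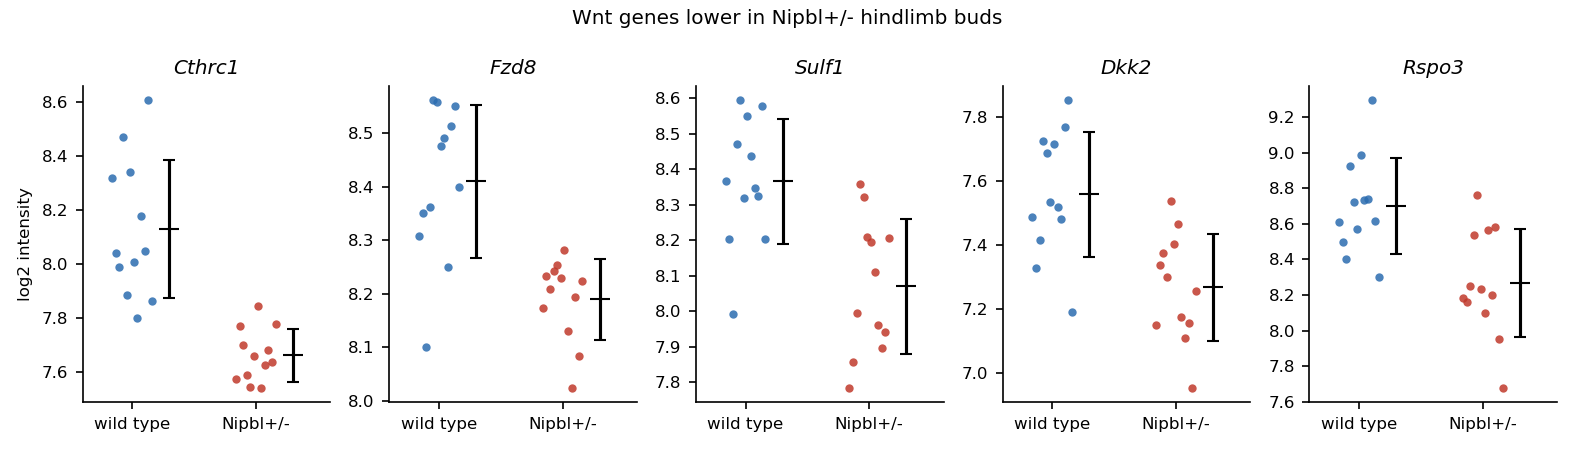
Log2 intensity of the 5 called Wnt genes per embryo, 12 of each genotype (wild type blue, Nipbl+/- red). Black marks give the mean and SD, and each panel has a vertical axis of its own. The highest Cthrc1 value among mutants, 7.84, lies just above the lowest wild type value, 7.80.

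The 5 calls did not hold equally under 12 alternative settings. Cthrc1 passed in 12 of them, with adjusted p from 3.15e-04 to 0.00892 (limma, or the t-test on linear values), and Fzd8 in 11. Sulf1 passed in 9, Dkk2 in 8 and Rspo3 in 8. Without the 3 arrays of narrowest spread (wild type 3, Nipbl+/- 2 and Nipbl+/- 9) Dkk2 and Rspo3 lost their calls (adjusted p = 0.0589 and 0.0702, limma), with differences of -0.29 and -0.44. With embryo sex as a covariate, Sulf1 lost its call (adjusted p = 0.0903, limma) at an equal difference of -0.30. Under that setting Rspo3, Dkk2 and Fzd8 had larger differences of -0.53, -0.35 and -0.25, and Cthrc1 a smaller one of -0.42. With array medians over all probe sets at 0, only Cthrc1 passed, and Fzd8, Sulf1, Dkk2 and Rspo3 had differences of -0.21, -0.28, -0.28 and -0.42.

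**Figure D4:**
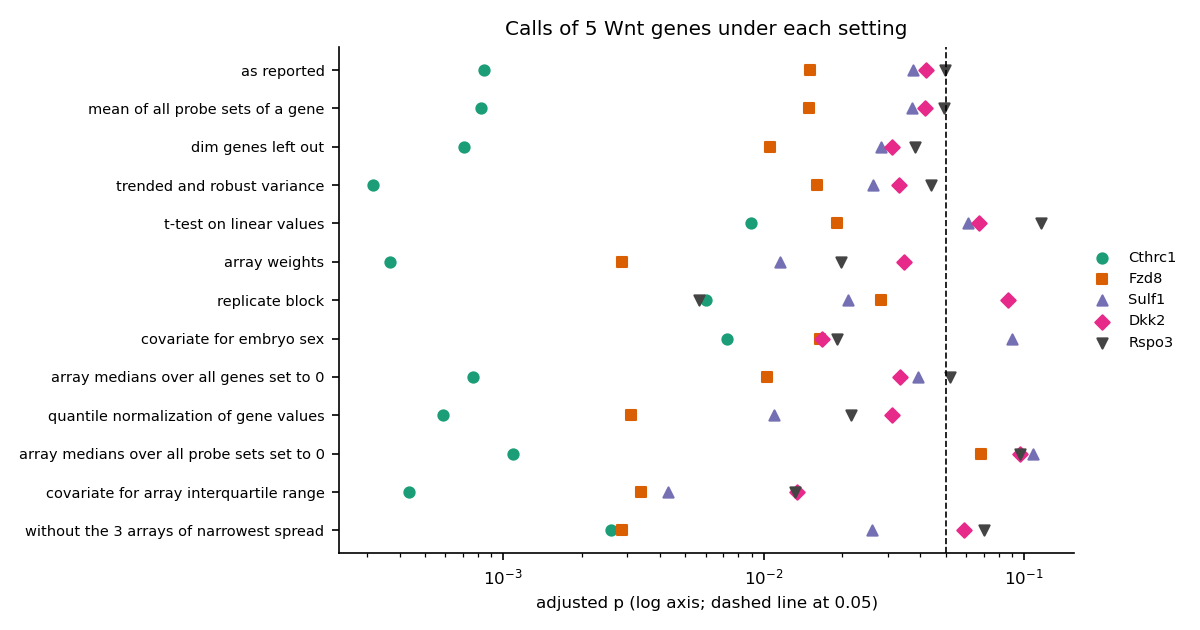
Adjusted p (log axis) of Cthrc1, Fzd8, Sulf1, Dkk2 and Rspo3 as reported here (genotype alone) and under 12 alternative settings. The dashed line is at 0.05. Cthrc1 stays left of the line in every setting, from 3.15e-04 to 0.00892. With genotype alone, Rspo3 lies closest to the line, at 0.0496.

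Embryos of the same genotype also varied, and some called genes varied together. After the genotype means were removed, 16 relations were tested over 24 embryos by permutation, two-sided, with adjustment over the 16. Embryo sex was not removed, and its part in these relations was not tested. Dkk2 and Sulf1 correlated with Pearson's r = 0.661 (permutation p = 6.10e-04, adjusted p = 0.00488; Spearman's rho = 0.699, permutation p = 2.50e-04, adjusted p = 0.0024). Without the 2 embryos farthest from the median, r was 0.698. Within wild type embryos alone r was 0.738 and within mutants 0.586.

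Dkk2 and Fzd8 gave r = 0.600 (permutation p = 0.00315, adjusted p = 0.0084) and rho = 0.714 (p = 3.00e-04, adjusted p = 0.0024). Without 2 embryos r was 0.610, within wild type 0.522 and within mutants 0.820. Sulf1 and Fzd8 gave r = 0.590 (permutation p = 0.0019, adjusted p = 0.00608) and rho = 0.555 (p = 0.00392, adjusted p = 0.0125), with 0.429 without 2 embryos, 0.705 within wild type and 0.481 within mutants. Within wild type Dkk2 with Sulf1 and Sulf1 with Fzd8 passed after adjustment, and within mutants Dkk2 with Fzd8 alone of these.

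Rspo3 and Dkk2 gave r = 0.509 (permutation p = 0.0127, adjusted p = 0.0253) and rho = 0.457 (p = 0.0292, adjusted p = 0.0667). Without 2 embryos r was 0.507, but it was 0.730 within wild type and 0.287 within mutants. None of the 4 pairs with Cthrc1 passed, with r from -0.115 to 0.395 and adjusted p from 0.14 to 0.648 (permutation). Rspo3 with Sulf1 (r = 0.351) and with Fzd8 (r = 0.265) did not pass either.

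The spread of the arrays moved with some of these genes. The residuals of Sulf1, Fzd8, Rspo3 and Dkk2 correlated with the interquartile range of the array at r = 0.565, 0.429, 0.375 and 0.332 over the 24 arrays, and those of Cthrc1 at -0.0832, given as a description. With that range removed, Dkk2 with Sulf1 (0.608), Dkk2 with Fzd8 (0.537) and Sulf1 with Fzd8 (0.466) still passed, while Rspo3 with Dkk2 (0.440) did not (adjusted p = 0.0604, permutation).

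Ligands made in limb ectoderm were set against the mean of 14 ectoderm markers in the same embryos. Wnt4 followed them most closely (r = 0.724, permutation p = 1.10e-04, adjusted p = 0.00176; rho = 0.638, p = 0.00151, adjusted p = 0.00656), with r = 0.641 without the 2 farthest embryos. Within wild type r was 0.634 and within mutants 0.782. Wnt3 gave r = 0.633 (permutation p = 0.0013, adjusted p = 0.00608) and rho = 0.542 (p = 0.00834, adjusted p = 0.0222). Its r was 0.506 without 2 embryos, 0.597 within wild type and 0.673 within mutants. The residuals of Wnt3 correlated with the interquartile range of the array at r = 0.579. With that range removed r was 0.682 (adjusted p = 0.00576, permutation), but 0.372 without 2 embryos (permutation p = 0.0995). With array medians over all genes at 0 it was 0.517 (adjusted p = 0.0387, permutation), and 0.388 without 2 embryos (permutation p = 0.079).

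Wnt6 gave r = 0.653 (permutation p = 0.00172, adjusted p = 0.00608) and rho = 0.630 (p = 0.00164, adjusted p = 0.00656), with r of 0.690 within wild type and 0.641 within mutants. Wnt7a gave r = 0.519 (permutation p = 0.00821, adjusted p = 0.0188) and rho = 0.420 (p = 0.0454, adjusted p = 0.0909), with 0.476 within wild type and 0.595 within mutants. Without the 2 farthest embryos r fell to 0.406 for Wnt6 (permutation p = 0.0707) and 0.333 for Wnt7a (p = 0.137), so that Pearson's r did not pass without them in either gene. Over all 24 embryos the rank correlation passed for Wnt6 and not for Wnt7a. Wnt7b (r = 0.186, adjusted p = 0.463) and Wnt10a (r = 0.309, adjusted p = 0.251, permutation) did not pass.

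Wnt10a also moved with the spread of the arrays. That spread was set only against the called genes, the ectodermal ligands and the ectoderm marker mean, so the relation may not be particular to Wnt10a. Its residuals correlated with the interquartile range of the array at -0.842 over the 24 arrays, given as a description. With that range removed it followed the ectoderm markers at r = 0.801 (permutation p = 1.00e-05, the smallest the permutations can give, adjusted p = 1.60e-04; rho = 0.727, p = 8.00e-05, adjusted p = 0.00128), and at 0.545 without the 2 farthest embryos (permutation p = 0.0092). Without that step r was -0.116 when 2 embryos were left out. It was not called in the genotype comparison (-0.02, adjusted p = 0.98, limma).

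**Figure D5:**
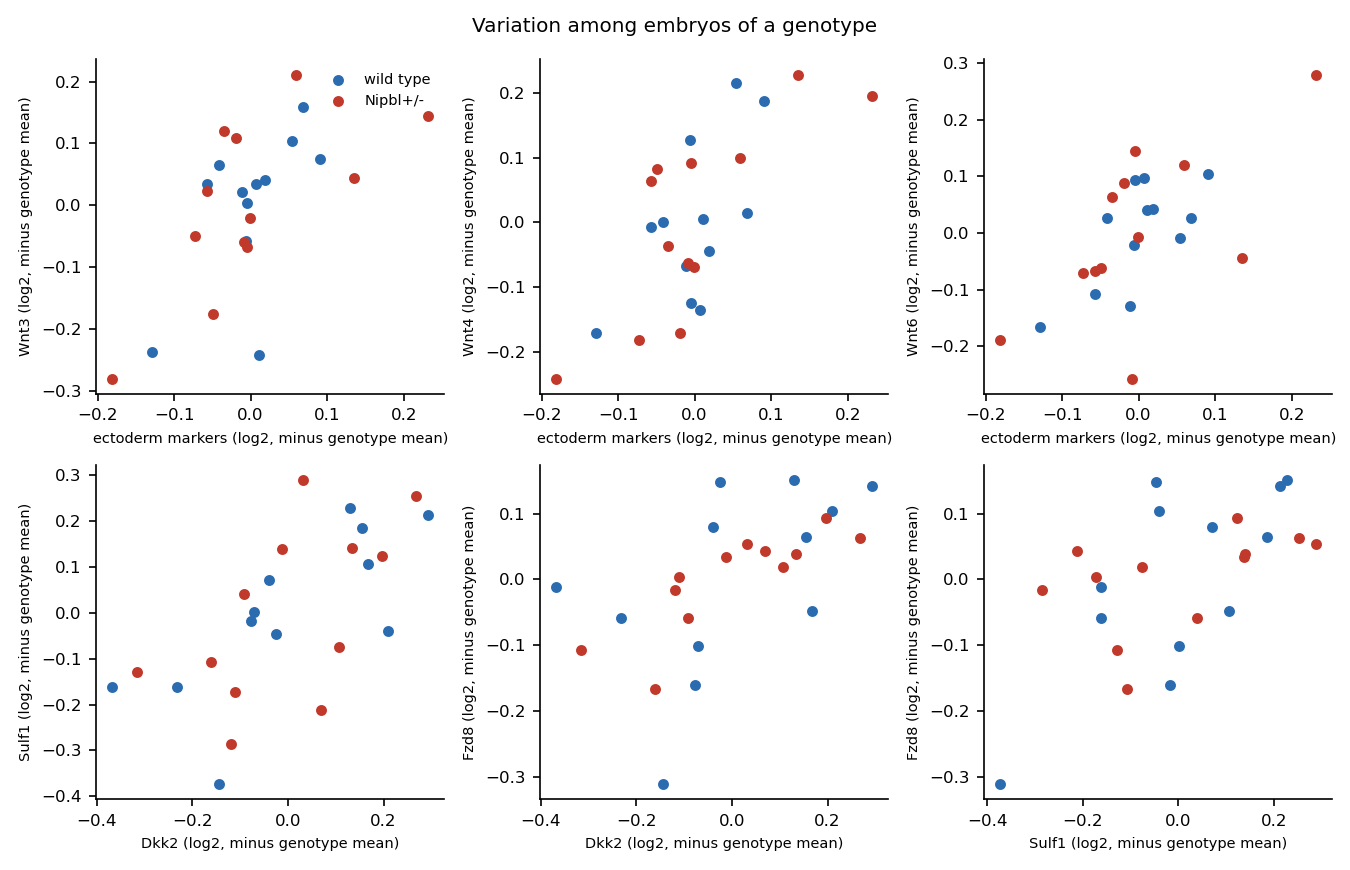
Deviation of each embryo from its genotype mean (log2) in 12 wild type (blue) and 12 Nipbl+/- (red) embryos. The top row sets Wnt3, Wnt4 and Wnt6 against the mean of 14 ectoderm markers (r = 0.633, 0.724 and 0.653), and the bottom row shows pairs of Dkk2, Sulf1 and Fzd8 (r = 0.661, 0.600 and 0.590).

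A list of 53 other measured genes covered Wnt secretion, transduction and feedback, and included some secreted and cell-surface proteins. Of these, 1 was lower and 2 were higher (adjusted p under 0.05, limma), beside 0.527% and 0.286% of all genes. Daam2, a formin that links Dishevelled to the cytoskeleton, was 8.40, 8.68 and 8.94 in wild type and 8.07, 8.24 and 8.47 in mutants, and 11 wild type embryos were above every mutant. Its difference was -0.41 (standard error 0.0545, ratio 0.751, adjusted p = 6.64e-05, limma).

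The kinase Nlk, which phosphorylates TCF/LEF factors, was 10.35, 10.65 and 10.83 in wild type and 10.76, 10.82 and 10.94 in mutants, above the wild type mean in 12 of 12 (0.20, standard error 0.044, adjusted p = 0.0198, limma). Csnk2a1, a catalytic subunit of casein kinase 2, was 11.92, 11.97 and 12.06 in wild type and 12.03, 12.09 and 12.20 in mutants (0.12, standard error 0.0284, adjusted p = 0.0326, limma). At an unadjusted p under 0.05, 5 of the 53 were lower and 4 higher, beside 5.14% and 4.13% of all genes. Among those not called were the polarity gene Prickle1 (-0.13, adjusted p = 0.135, limma) and Shisa2, which holds Frizzleds inside the cell (-0.16, adjusted p = 0.17, limma). Daam1 (-0.13, adjusted p = 0.296, limma) and Csnk2a2 (0.07, adjusted p = 0.439, limma) were not called either. The corepressors Tle1 (-0.16, adjusted p = 0.288, limma) and Tle4 (0.10, adjusted p = 0.451, limma) had opposite signs. Axin2, a feedback target of beta-catenin, differed by -0.03 (standard error 0.0441, adjusted p = 0.946, limma) and Ctnnb1, beta-catenin itself, by -0.02 (standard error 0.0286).

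Markers of the cell types in the bud were read beside these results, and their part in them was not tested. Among the 14 ectoderm markers Krt5, a basal keratin, was lower (-0.31, adjusted p = 0.00171, limma) and 13 did not pass, with a median difference of 0.013 and a mean level per embryo of 9.07 to 9.29 in wild type and 9.02 to 9.43 in mutants. None of the 8 limb mesenchyme markers or 10 endothelial markers was called (medians 0.0076 and -0.013). Of 6 nerve and Schwann cell markers Erbb3 was called higher (0.25, adjusted p = 0.0499, limma). None of 6 erythroid, 7 macrophage or 5 muscle precursor markers was called. All 7 macrophage markers lay under 0 (median -0.08), though Cd68 (-0.0095) and Adgre1 (-0.0039) only slightly. All 5 muscle precursor markers lay above 0 (median 0.0335). Over all genes 53.5% lay under 0. The macrophage markers' mean level was 6.54 to 6.75 in wild type and 6.46 to 6.69 in mutants, and 4 of the 7 exceeded the olfactory receptor floor.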

How the data were processed

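RNA from 24 embryos was measured on as many arrays. The authors summarised the scans in GenePattern (Expression File Creator) by RMA, which the processing notes of the submitters name with no version given in these sources. The deposited values are therefore log2 intensities after background correction, quantile normalization and summary per probe set. Such normalization can hide a shift shared by most genes. The number of arrays limits the precision.

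Of 28159 probe sets, 21640 had 1 gene symbol, 1321 several and 5198 none listed. The brightest probe set per symbol gave 19937 genes, of which 954 had more than 1. The authors' module for marker selection was not used. Genotypes were compared in R 4.3.3 by limma 3.58.1, using lmFit and eBayes with genotype alone. P-values were adjusted over all genes (Benjamini-Hochberg) and called under 0.05. Correlations used 100000 permutations within genotype in Python 3.11.15. No array was identical to another, and the scripts were tested on simulated data. The sex covariate was Xist minus 3 Y-linked genes, since Ddx3y, also planned, had no single-symbol probe set.

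Members called or with an unadjusted p under 0.05 are given in full, other members by range with the brightest as examples, with some added after their values were seen. Members and gene lists were chosen with earlier results of these data known. Replicate numbers were given to the samples within each genotype and were checked as possible pairs. Alternatives covered array weights, array scaling, embryo sex, a replicate block, the probe set used, the variance model, the removal of dim genes and a t-test on linear values. Array spread, the 3 arrays of narrowest spread and scaling over all probe sets were added after seeing the data. Protein sequences were not used here.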

Additional observations from a re-analysis of the deposited data

How the results depend on the processing

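Of 192 combinations of 16 members (the 5 called and 11 with an unadjusted p under 0.05) and 12 alternatives, 174 kept their direction and side of the threshold, 12 lost a call, 6 gained one and 0 changed direction. Called members numbered 2 with the t-test on linear values (Fzd8 and Cthrc1) and 1 with array medians over all probe sets set to 0 (Cthrc1), and from 4 to 7 under the other 10. The cause was not tested. The count of members called higher was 0 under each setting.

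With a replicate block 4 members were called lower. Dkk2 had an adjusted p of 0.0865 (limma) at a difference of -0.29, the same as with genotype alone. The sample labels do not say whether equal replicate numbers pair the samples. The deviations of same-numbered arrays correlated from -0.355 to 0.282 (median -0.0217), over 0.1 in 5 of 12 pairs. Of 12 wild type arrays, 3 correlated best with their own number. These values cannot show whether same-numbered embryos were littermates or were processed together, so no pairing was assumed.

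Over all genes, calls numbered 57 higher and 105 lower with genotype alone. They numbered 101 and 180 with array weights and 142 and 166 with quantile normalization. With array medians over all genes at 0 they were 73 and 94, and with the sex covariate 30 and 95. With medians over all probe sets at 0 they were 37 and 67, and with the interquartile range as a covariate 185 and 302. Of 6 ectodermal ligands, 4 correlated with the ectoderm markers past the threshold over 24 embryos, 1 within wild type (Wnt6) and 1 within Nipbl+/- (Wnt4), each on 12 embryos. Of 10 pairs of called members, 4 passed over 24 embryos, 3 within wild type and 1 within Nipbl+/- (Dkk2 with Fzd8). Signal over background limits Wnt1, Wnt8b, Sfrp4 and Sfrp5, whose means did not exceed the olfactory receptor floor.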

Other observations

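Genes that varied with Wnt2 among embryos were looked up after its SD was seen and are given without a test. With genotype means removed, the genes most like Wnt2 among 19936 others over 24 embryos were Gata6, a zinc finger transcription factor (r = 0.916, rho = 0.890), and Pgm5, a phosphoglucomutase relative found at adhesion sites (r = 0.916, rho = 0.885). They were followed by the matrix protein Tnc (r = 0.852), the uroplakin Upk3b (r = 0.822) and the protease Adamts1 (r = 0.809). Without the 2 embryos farthest from the median, r was 0.889 for Gata6 and 0.896 for Pgm5. Within wild type and mutant embryos Gata6 gave 0.920 and 0.924. These values come from the embryos by which the genes were picked, so they are not a separate check.

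Gata6 itself had log2 intensities of 8.62, 9.45 and 10.18 (lowest, median, highest) in wild type and 8.74, 9.24 and 10.16 in Nipbl+/- embryos. The ranges almost coincided, and the difference was -0.15 (standard error 0.169, adjusted p = 0.898, limma). For Pgm5 the difference was 0.00 (standard error 0.2, adjusted p = 0.998, limma). The part of this shared variation in the Wnt2 difference was not tested.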
